A study of Rattus norvegicus with 4 samples.

Results

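Heat shock proteins were measured in mammary gland RNA as 12 probe sets of 8 genes, taken by gene symbol from 31099 probe sets on each of 4 arrays. Of 10 genes sought, Hsph1, Dnaja1, Dnajb1 and Hsp90ab1 had 2 probe sets each, and Hspa4, Hspb1, Hspd1 and Hspe1 had 1 each. Hspa8 and Hsp90aa1 had only probe sets that the platform annotation assigns to several genes, so no value is given for either. All 12 probe sets lay above the floor signal of 91.5 in all 4 arrays, the floor being the level to which weaker signals were raised. Although the genes are grouped as cytosolic, the products of Hspd1 and Hspe1 work in the mitochondrial matrix.

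The arrays came from Sprague-Dawley rats (SDR) on day 1 of lactation, from Hirosaki hairless rats (HHR), a mutant strain derived from SDR, either heterozygous or homozygous, on day 1 of lactation, and from SDR on day 1 of involution, when the gland regresses after milk removal stops. Each group was 1 array. The labels give neither the animals' age nor whether RNA of several animals was pooled, and they do not state how long the involuting glands had lactated. With 1 array per group, no difference below carries an error between replicates or a p-value, and each compares a pair of arrays, not of conditions.

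Heat shock proteins are chaperones, which bind unfolded proteins and help them to fold. HSP70 proteins hold short hydrophobic stretches of a client in a cycle driven by ATP, J proteins (the Dnaj genes) bring clients to HSP70, and the HSP110 proteins Hsph1 and Hspa4 release its ADP. HSP90 receives clients such as kinases and steroid hormone receptors from HSP70, Hspb1 is a small heat shock protein that holds unfolded proteins without ATP, and Hspd1 with its lid Hspe1 forms the chaperonin that folds proteins imported into mitochondria. Many of these genes are induced by heat shock factor 1 (Hsf1), which binds repeats of the letters GAA, alternating in orientation, called heat shock elements.

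Stretches of the promoters are shown for the genes whose signals differed by more than 1.5-fold between the SDR arrays and for Hspe1, whose window overlaps that of Hspd1. Sequences are from RefSeq (build GRCr8) and run from 130 bases before the annotated start through the first 30 bases from it, 5′ to 3′ along the gene, with an element of 3 units in capitals.
Hsph1 (chr12:10427238-10427397, + strand): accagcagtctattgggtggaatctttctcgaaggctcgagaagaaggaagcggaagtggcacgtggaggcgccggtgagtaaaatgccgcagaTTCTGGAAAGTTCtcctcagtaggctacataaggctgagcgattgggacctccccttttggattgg
Dnaja1 (chr5:60638274-60638433, + strand): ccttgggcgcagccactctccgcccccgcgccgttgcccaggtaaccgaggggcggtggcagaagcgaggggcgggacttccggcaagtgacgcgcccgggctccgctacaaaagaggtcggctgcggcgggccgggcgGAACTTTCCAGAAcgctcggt
Hsp90ab1 (chr9:22930293-22930452, + strand): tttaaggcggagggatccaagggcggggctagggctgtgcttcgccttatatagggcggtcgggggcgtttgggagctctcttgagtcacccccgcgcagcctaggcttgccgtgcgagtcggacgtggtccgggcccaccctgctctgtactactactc
Hspe1 (chr9:64084197-64084356, + strand): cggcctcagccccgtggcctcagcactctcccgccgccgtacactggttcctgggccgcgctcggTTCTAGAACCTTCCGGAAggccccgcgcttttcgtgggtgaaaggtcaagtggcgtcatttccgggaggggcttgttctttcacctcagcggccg

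An element of 2 units was searched as GAANNTTC or TTCNNGAA, and one of 3 units as GAANNTTC followed by NNGAA or TTCNNGAA followed by NNTTC. On the opposite strand each pattern reads as itself or as the other of its pair, so both strands were covered, and each 3-unit match contains 2-unit matches. Windows from 250 bases before to 50 after the start were available for all 8 measured genes. In 4 of them, Hsph1, Dnaja1, Hspd1 and Hspe1, an element of 3 units was found, against 0.798% of all 33469 windows of 300 bases in the table. Dnajb1 and Hspb1 held only elements of 2 units. An element of 2 units was in 15.9% of all windows, a share that includes windows with an element of 3 units. The windows of Hsp90ab1 and Hspa4 held neither. Counted with the start base as 0, the 3-unit element began at -36 in Hsph1 and at 9 in Dnaja1. Hspd1 and Hspe1 lie head to head, and their windows share 211 bases (chr9:64084077-64084287). The run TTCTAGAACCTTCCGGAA, which holds 2 overlapping matches of 3 units, begins at -65 in the Hspe1 window and is the same stretch that, on the opposite strand, reads TTCCGGAAGGTTCTAGAA and begins at -242 in the Hspd1 window. These matches describe the letters of the windows and are no evidence of binding.

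**Figure D1:**
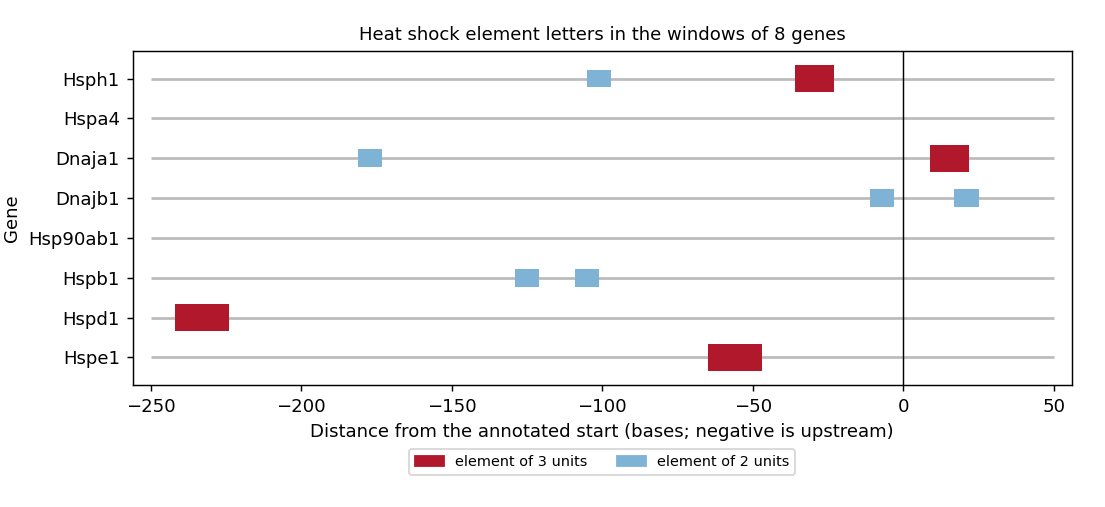
Positions of heat shock element letters in the RefSeq windows of the 8 measured genes, with the distance from the annotated start in bases on the x axis and a row per gene; red boxes are elements of 3 units and blue boxes elements of 2 units. Hsph1, Dnaja1, Hspd1 and Hspe1 carry red boxes, Dnajb1 and Hspb1 only blue ones, and Hsp90ab1 and Hspa4 none.

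The arrays were checked before the comparisons. The 3′ to 5′ signal ratio of the Gapdh control, which grows with RNA degradation, lay between 1.17 (SDR lactation) and 2.30 (homozygous HHR), and that of actin between 4.60 (SDR lactation) and 7.86 (heterozygous HHR). All 10 luminal epithelial markers were above the floor in all 4 arrays, and their summed signal, most of it from the milk protein genes Csn2, Csn3, Lalba and Wap, ranged from 243410 to 265529. In involution 4 of the 10 were nevertheless at least 2-fold above SDR lactation (Krt8 4.37-fold, Krt18 3.46-fold, Krt19 4.84-fold and Cdh1 3.97-fold) and Elf5, a transcription factor of milk-producing cells, was lower (3420 against 13668). Markers of dividing cells moved far more, with a summed signal over 11 genes of 14719 (SDR lactation), 46063 (heterozygous HHR), 18947 (homozygous HHR) and 5612 (SDR involution). In involution 2 of the 11, Top2a and Birc5, were at or under the floor. The summed myoepithelial markers ranged from 21110 (SDR lactation) to 36842 (heterozygous HHR). In these bulk samples a different number of cells of a type and a different amount of RNA per cell cannot be told apart.

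Hsph1, the HSP110 exchange factor that is induced by heat, varied most among the brighter or sole probe sets of the 8 genes. Its brighter probe set (1388898_at) had signals of 939 (SDR lactation), 1893 (heterozygous HHR), 882 (homozygous HHR) and 2429 (SDR involution). The SDR and homozygous HHR lactation arrays were thus low and the heterozygous and involution arrays high, with 2.75-fold between the lowest and the highest array. The dimmer probe set (1385620_at) read 335, 416, 201 and 384 in the same order. It likewise had its lowest signal in homozygous HHR, but its highest was in heterozygous HHR, and involution was only 1.14-fold above SDR lactation against 2.59-fold in the brighter one. Between homozygous and heterozygous HHR the probe sets differed little, at 2.15-fold and 2.07-fold lower in the homozygous array. Hspa4, the related exchange factor that is less dependent on stress, ranged only from 501 in homozygous HHR to 637 in heterozygous HHR, with 619 in SDR lactation and 519 in SDR involution.

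Of the J proteins, Dnaja1, a cytosolic type A member, was high in involution alone. Its brighter probe set (1398819_at) had signals of 2535 (SDR lactation), 2012 (heterozygous HHR), 2157 (homozygous HHR) and 4195 (SDR involution). The other probe set (1368852_at) had 869, 678, 809 and 1315 and put the 4 arrays in the same order. Involution was 1.66-fold and 1.51-fold above SDR lactation in this gene. Dnajb1, the type B partner of HSP70 known for its strong heat induction, had no settled order. Its brighter probe set (1388722_at) gave 2100, 2374, 2184 and 2376, a range of 1.13-fold, whereas the dimmer one (1383302_at) gave 1120, 733, 786 and 871 and was highest in SDR lactation. For all 4 pairs of arrays the Dnajb1 probe sets had opposite signs.

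Hsp90ab1, which encodes the constitutive cytosolic HSP90, was also highest in involution. The brighter probe set (1375336_at) had signals of 8942 (SDR lactation), 7697 (heterozygous HHR), 7350 (homozygous HHR) and 14471 (SDR involution). The dimmer probe set (1375335_at) had 4072, 4562, 2703 and 10737. Both put involution on top and homozygous HHR at the bottom, with 1.97-fold and 3.97-fold between them. The size of the involution difference depended on the probe set, at 1.62-fold and 2.64-fold above SDR lactation, and the sign of the heterozygous difference from SDR lactation did as well.

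Hspb1, the small heat shock protein HSP27, had signals of 994 (SDR lactation), 1103 (heterozygous HHR), 666 (homozygous HHR) and 1401 (SDR involution). The homozygous array was the lowest and the involution array the highest, 2.10-fold apart. Cryab, a small heat shock protein of the lens and muscle that can form complexes with Hspb1, had a different order, with 107, 232, 251 and 297. Its SDR lactation signal lay close to the floor, and all 3 other arrays were at least 2-fold above it.

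The mitochondrial chaperonin Hspd1 had signals of 7171 (SDR lactation), 11385 (heterozygous HHR), 8014 (homozygous HHR) and 10350 (SDR involution). Its lid Hspe1 had 6230, 7784, 5369 and 5752. Both were highest in heterozygous HHR. They parted in involution, where Hspd1 was 1.44-fold above SDR lactation and Hspe1 1.08-fold below it, a gap of 0.64 on the log2 scale. The sign of the small Hspe1 difference turned with quantile normalization, to 0.06. Against heterozygous HHR the homozygous array was lower by nearly the same amount in both genes, 1.42-fold for Hspd1 and 1.45-fold for Hspe1.

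**Figure D2:**
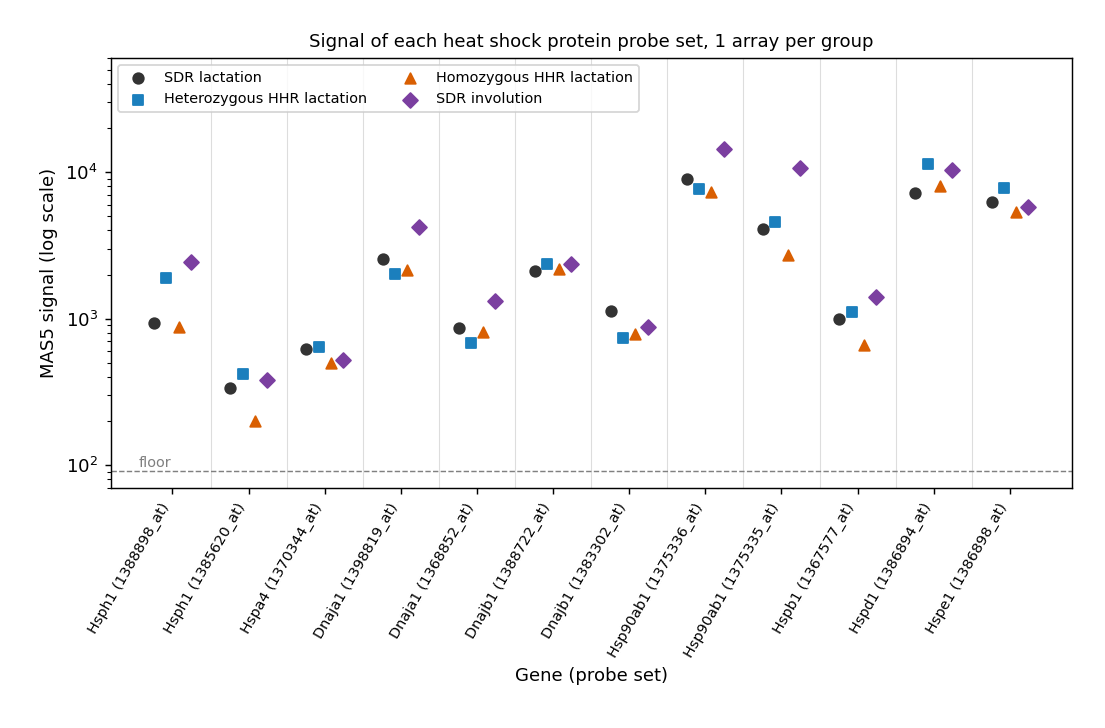
Signal of each of the 12 probe sets (x axis, gene and probe set) in each of the 4 arrays (y axis, MAS5 signal on a log scale), with 1 point per array and the floor of 91.5 as a dashed line. The involution diamonds stand on top in 7 of 12 probe sets and the homozygous HHR triangles at the bottom in 7 of 12. With 1 probe set per gene each count was 5 of 8, against 36.4% and 18.7% of all genes. Signal levels can be compared within a probe set only.

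With 1 probe set per gene, the brighter one, 5 of 8 genes had their lowest signal in homozygous HHR, where 18.7% of 11395 genes had theirs, and 5 of 8 had their highest in SDR involution, where 36.4% of all genes had theirs. The remaining 3 genes, Hspa4, Hspd1 and Hspe1, peaked in heterozygous HHR, as did 23.8% of all genes. None of the 8 peaked in SDR lactation (22.4% of all genes) or in homozygous HHR (17.4%). The lowest signal fell in SDR lactation for Dnajb1 and Hspd1 (26.1% of all genes), in heterozygous HHR for Dnaja1 (25.3%), and in SDR involution for none (29.8%). Without replicates, neighbours in these orders cannot be said to differ.

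Homozygous HHR were compared with SDR on day 1 of lactation. Heat shock protein signals were slightly lower in the homozygous array, with 6 of 8 genes below SDR and 2, Hspd1 and Dnajb1, above it. None of the 8 reached 2-fold, higher (3.77% of 10866 measured genes) or lower (2.72%), and none reached 1.5-fold, higher (12.2%) or lower (9.99%). Hspb1 came closest, at 1.49-fold lower. The median log2 difference of the 8 genes was -0.22, against 0.02 for all genes. Dimmer probe sets of Hsph1 and Hsp90ab1 were 1.67-fold and 1.51-fold lower. The homozygous array also had the highest Gapdh 3′ to 5′ ratio (2.30 against 1.17 in SDR lactation). Myoepithelial markers were higher in it in 6 of 7, 3 of them at least 2-fold (median 0.99, summed signal 36171 against 21110). The other one, Oxtr, was at least 3.45-fold lower, with 316 in SDR lactation and a signal under the floor in homozygous HHR. Dividing-cell markers were higher in 10 of 11, none at least 2-fold (median 0.42), and T cell markers were lower in 5 of 6 (median -0.64). The part of the ratio and of these marker lists in the differences was not tested.

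Medians of the 10 other chaperone lists in this pair ran from -0.22 (ER chaperones) to 0.35 (other small heat shock proteins). Of 15 measured HSP90 co-chaperones none was past 2-fold, and Fkbp4, an immunophilin of steroid receptor complexes, was 1.73-fold lower (2218 against 3832). In the TRiC and prefoldin list, whose products fold actin and tubulin, 10 of 13 genes were below SDR, none past 2-fold, and the median was -0.15. No member of the lists of other HSP70 and HSP110 genes (4 measured, median 0.00), other cytosolic J proteins (13, 0.18), HSP70 co-chaperones (11, 0.00), other mitochondrial chaperones (12, 0.11) or heat shock factors (4, 0.01) passed 2-fold. Among 6 other small heat shock proteins only Cryab passed (median 0.35). Hspa1a, the classic heat-induced HSP70, was 1.83-fold higher (514 against 281). Its probe set may not tell it from its near-identical neighbour Hspa1b, so that value is uncertain. Of 15 chaperones of the endoplasmic reticulum (ER), where milk proteins are folded, only Dnajb9 passed 2-fold, at 2.11-fold lower (median -0.22).

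Heterozygous HHR were compared with SDR on the same day. Hsph1 was 2.02-fold higher in the heterozygous array, more than 95.5% of all genes, and Hspd1 was 1.59-fold higher. Hspe1 was 1.25-fold higher, while Dnaja1 was 1.26-fold lower and Hsp90ab1 1.16-fold lower. In all, 1 of 8 genes was at least 2-fold higher (4.58% of 10876 genes) and none lower (4.15%), and 2 were at least 1.5-fold higher (13.8%) and none lower (13%). The median was 0.16, against 0.01 for all genes. Hsph1 only just passed 2-fold. Its log2 difference was 1.01, and it fell short with median centring (0.997), with quantile normalization (0.99), with the floor added as a pseudocount (0.95) and with the mean of its probe sets (0.66). Genes of dividing cells differed in the same pair of arrays, with 9 of 11 at least 2-fold higher and a median of 1.71. Myoepithelial markers were higher in 6 of 7 (median 0.69), and the other one, Oxtr, was 2.16-fold lower. Fibroblast markers were lower in 5 of 7 (median -0.74) and macrophage markers in 7 of 8 (median -0.64). Endothelial and T cell markers were lower in 6 of 6 each (medians -0.73 and -0.41). The heterozygous array also had the highest actin 3′ to 5′ ratio (7.86 against 4.60 in SDR lactation), with a Gapdh ratio of 1.93 against 1.17. The part of these lists and ratios in the differences was not tested.

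In this pair 12 of 13 TRiC and prefoldin genes were above SDR, with a median of 0.29 and none past 2-fold. The TRiC subunit Cct6a was 1.88-fold higher (3839 against 2045). The other mitochondrial chaperones had the highest median of the 10 lists, 0.43, with 1 of 12 past 2-fold, the import component Timm44, whose SDR signal was at the floor. That rank depended on the processing. With the mean of all probe sets their median was 0.19, below the HSP90 co-chaperones (0.28). With the floor at the 55th percentile it was 0.22, below TRiC and prefoldin (0.29). Trap1, the mitochondrial HSP90, was 1.90-fold higher (1989 against 1046). Of 13 other cytosolic J proteins 2 were at least 2-fold higher, Dnajc9, a histone chaperone, at 2.37-fold and the ribosome-bound Dnajc2 at 2.04-fold. Hsf1 itself was 1.88-fold higher (565 against 300). Hsbp1, a heat shock factor binding protein kept in the list of heat shock factors, was 1.87-fold lower (1088 against 2035). Hmox1, a heme oxygenase that heat and oxidative stress induce, was 3.13-fold lower. Other heat-inducible genes had a median of 0.09, with 1 of 13 at least 2-fold higher (Cryab) and 1 at least 2-fold lower (Hmox1). Medians were 0.18 for 4 other HSP70 and HSP110 genes, 0.29 for 5 other small heat shock proteins and 0.26 for 15 HSP90 co-chaperones. They were 0.13 for 11 HSP70 co-chaperones, 0.11 for the J proteins and -0.06 for the 4 genes in the list of heat shock factors. The median of 15 ER chaperones was -0.01, and of these Dnajb11 was 2.32-fold higher and Dnajb9 2.88-fold lower.

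Homozygous were then compared with heterozygous HHR. Of the 8 genes 7 were lower in the homozygous array, Hsph1 most (2.15-fold), followed by Hspb1 (1.66-fold), Hspe1 and Hspd1, and only Dnaja1 was slightly higher. At 2-fold 1 gene was lower (3.14% of 10877 genes) and none higher (3.76%), and at 1.5-fold 2 were lower (11%) and none higher (12.3%). The median was -0.43, against 0.00 for all genes. Both Hsph1 probe sets passed 2-fold here, and the gap between them was 0.05, where the median gap over 2452 genes with several probe sets was 0.34. Dividing-cell genes were again different, 8 of 11 of them being at least 2-fold lower (median -1.34). Fibroblast markers were higher in 7 of 7 (median 0.66, summed signal 65483 against 42094) and macrophage markers in 7 of 8 (median 0.49, 6397 against 4490). The part of these lists was not tested.

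All 13 measured TRiC and prefoldin genes were lower in the homozygous array, as they were with median centring and quantile normalization, none past 2-fold, with a median of -0.55. HSP90 co-chaperones were lower in 14 of 15, and Stip1, which hands clients from HSP70 to HSP90, was 2.09-fold lower (1493 against 3125). St13, which stabilises the ADP state of HSP70, was 1.60-fold lower, although a further probe set of it was slightly higher. Of the mitochondrial list 11 of 12 were lower and 1, the disaggregase Clpb, passed 2-fold at 2.19-fold lower, with log2 differences of -0.42 and -0.35 in its dimmer probe sets. Against that direction, the inducible J protein Dnajb4 was 2.09-fold higher (1250 against 597) and Hmox1 was 2.38-fold higher (391 against 165). These and Stip1 were the genes past 2-fold in the list of other heat-inducible genes (13 measured, median 0.11). None passed among other HSP70 and HSP110 genes (4, -0.43), small heat shock proteins (6, 0.33), HSP70 co-chaperones (11, 0.02), heat shock factors (3, 0.14) or ER chaperones (15, -0.23). The SDR lactation array enters both comparisons above and the next one, and this comparison shares an array with each of those above, so the 4 sets of differences are not independent.

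Involution was compared with lactation within SDR. Hsph1 was 2.59-fold higher, Dnaja1 1.66-fold, Hsp90ab1 1.62-fold, Hspd1 1.44-fold and Hspb1 1.41-fold higher in the involution array, while Hspa4 was 1.19-fold lower. At 2-fold 1 of 8 genes was higher (10.3% of 11014 genes) and none lower (8.94%), and at 1.5-fold 3 were higher (23.5%) and none lower (18%), so the shares lie near those of all genes in a pair of arrays that differed widely. The median of the 8 genes was 0.51, against 0.08 for all genes. With median centring these medians were 0.37 and -0.06, and of all genes past 2-fold the share that was higher was 41.0% in place of 53.4%. Averaging the probe sets of each gene left 1 gene past 2-fold but another one, Hsp90ab1 at a log2 difference of 1.05, with Hsph1 at 0.78. Dividing-cell genes were lower in 8 of 11 at 2-fold, with a median of -2.21. Adipocyte markers were lower in 7 of 7 (median -0.98, summed signal 9559 against 32475), and 4 of 10 luminal markers were at least 2-fold higher and 1 lower. The part of these lists in the result was not tested.

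**Figure D3:**
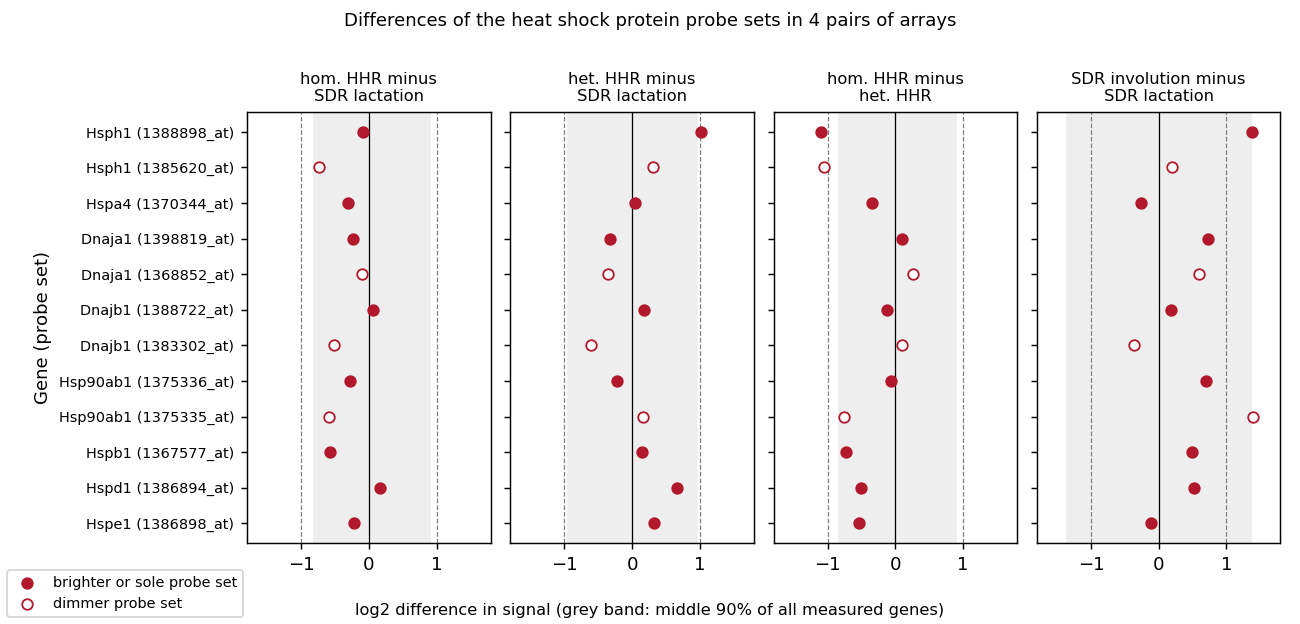
Signed log2 differences in signal (x axis) of the 12 probe sets (rows) in the 4 pairs of arrays (panels); filled points are the brighter or sole probe set of a gene, open points the dimmer one, dashed lines mark 2-fold, and the grey band holds the middle 90% of all measured genes. The filled Hsph1 point lies outside the band in heterozygous HHR (1.01), in homozygous against heterozygous HHR (-1.10) and, just past its edge, in involution (1.37). The open Hsph1 point is outside it only in homozygous against heterozygous HHR (-1.05) and inside in heterozygous HHR (0.31) and involution (0.19). In involution the open Hsp90ab1 point lies highest (1.40).

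All 13 TRiC and prefoldin genes were above lactation, 12 of 13 with median centring, with a median of 0.50 and 1, Cct8, past 2-fold. Cct8 was 3.28-fold higher in its brighter probe set (2375 against 725) and had a log2 difference of 0.57 in the other, Cct4 was 1.83-fold higher and Tcp1 1.73-fold higher. Sugt1, an HSP90 co-chaperone of immune receptors and kinetochores, was 2.93-fold higher (5176 against 1768), the single one of 15 past 2-fold (median 0.19). Hspbp1, an exchange factor of HSP70, was 2.23-fold higher, the single one of 11 HSP70 co-chaperones (median -0.01). Dnajc2 was 2.72-fold higher, and Dnajb14 was 2.13-fold lower, with a further probe set in the opposite direction. These were the 2 of 13 other cytosolic J proteins past 2-fold (median 0.04), although Dnajb14, grouped with them, sits in the ER membrane.

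Small heat shock proteins went both ways. Of 4 measured, Cryab was 2.78-fold higher and Hspb8 2.15-fold higher, with a log2 difference of 0.34 in the dimmer probe set of Hspb8. In contrast, Hspb6, a muscle member, was 2.12-fold lower (372 against 786). The median, 0.47, turned to -0.04 with median centring and with quantile normalization, where 5 genes were measured in place of 4. Chaperones of the ER were lower, with 11 of 15 below lactation, a median of -0.46 and 2 past 2-fold, Pdia4, a disulfide isomerase, at 2.45-fold and Dnajb9 at 2.23-fold. With quantile normalization 9 of 15 were below and their median was -0.20. Hspa5, the ER HSP70, had 16967 against 21401. In the list of other heat-inducible genes 2 of 14 were at least 2-fold higher (Cryab and Hspb8). The collagen chaperone Serpinh1 was the 1 at least 2-fold lower, at 2.33-fold (median 0.24). Hspa1a was 1.64-fold higher (460 against 281), Hsf1 1.24-fold and Hsf2 1.65-fold higher, and Stip1 was 1.20-fold lower. The dimmer probe sets of Hsf2 had log2 differences of -0.12, 0.50 and 0.09, the last close to the floor. None of the 4 genes in the list of heat shock factors was past 2-fold (median 0.07). The other HSP70 and HSP110 genes had a median of -0.07 with none of 4 past 2-fold, and of 12 other mitochondrial chaperones only Clpx, at 2.33-fold lower, passed (median -0.09).

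**Figure D4:**
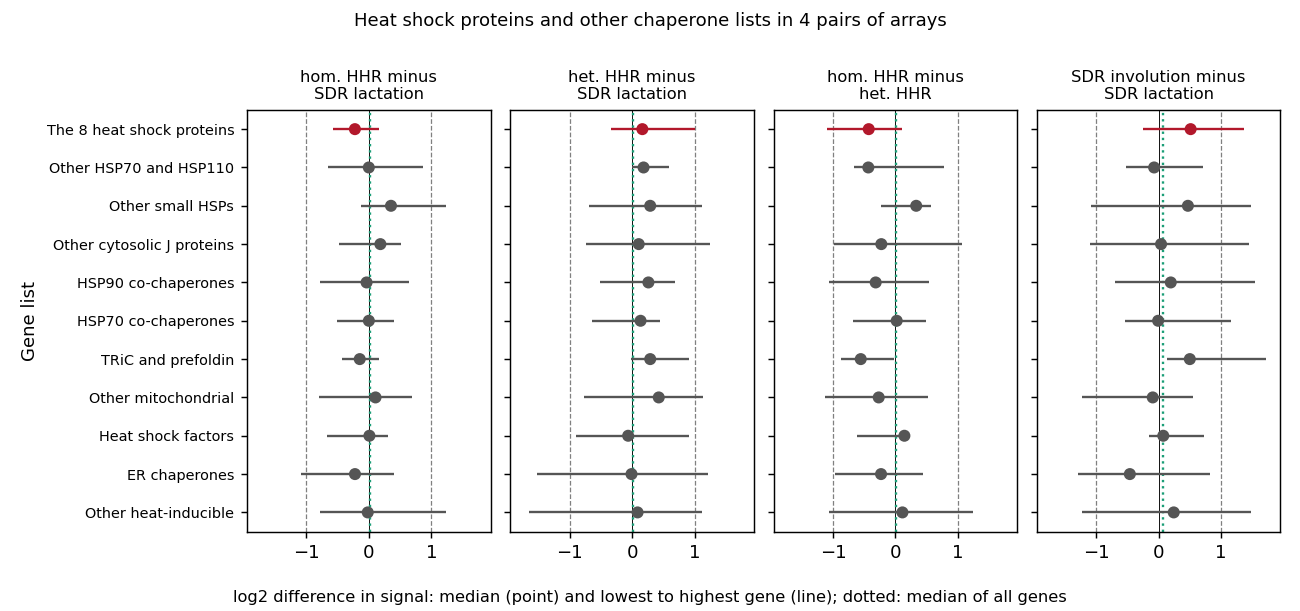
Median log2 difference (points) and the range from the lowest to the highest gene (lines) of the 8 heat shock proteins (red) and 10 other chaperone lists (grey) in the 4 pairs of arrays (panels); dashed lines mark 2-fold and the dotted line is the median of all genes. The red point lies at -0.22, 0.16, -0.43 and 0.51 from left to right, and in involution the ER chaperones lie on the other side of 0 at -0.46.

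Probe sets of a gene served as the only repeat reading. They read the same RNA on the same array, so the gap between them is no measure of error between arrays or animals. Where a gene had several probe sets, the gap was taken from its lowest to its highest difference. The 4 genes with a pair of probe sets gave 16 pairs of differences over the 4 comparisons, of which 11 had the same sign and 5 opposite signs, 4 of these in Dnajb1 and 1 in Hsp90ab1. Among all genes with several probe sets above the floor, all signs were the same in 55.6%, 54.8%, 62.3% and 60.4% in the 4 comparisons in the order given above. Dnaja1 probe sets lay within 0.03 to 0.15 of each other. The largest gap was that of Hsph1 in involution, 1.18, which lies between the upper quartile (1.03) and the 90th percentile (1.46) of the gaps of 2520 genes with several probe sets. The median gap over such genes was 0.53, 0.56, 0.34 and 0.62 in the 4 comparisons in the order given above, and 21 of the 32 differences of the 8 genes were smaller than it (7, 6, 3 and 5 of 8).

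Other genes with the pattern of Hsph1, the widest-ranging of the 8 by the brighter or sole probe sets, were sought by the distance over the 3 log2 differences from SDR lactation, among 9436 genes above the floor in all 4 arrays. The 5 nearest were Mcts2 (distance 0.18), Coprs (0.18), Adprs (0.23), Ddx51, an RNA helicase (0.26), and Lrig3 (0.27). Nearest to the median pattern of the 8 genes were Zfp579 (0.03), Tbl3 (0.05), Nfkbib, an inhibitor of NF-kappaB (0.06), Dusp11 (0.06) and the proteasome subunit Psmb3 (0.06). These distances rest on 4 arrays.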

How the data were processed

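Gland RNA was labelled and hybridised to 4 arrays, and groups follow the labels. The authors deposited array intensity values, linear signals computed with MAS5 (per the submitters' processing notes, no version given). Without the lowest and highest 2% of probe sets, every array has a mean of 500.2. No detection calls were used here.

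After removal of 57 control probe sets, the platform annotation gave 1 gene symbol to 20826, several to 436 and none to 9780, and only the first were named. Signals below the pooled 40th percentile (91.5) were set to it before log2 differences were computed. For each of 14217 genes the probe set of highest mean log2 signal stood for the gene. Counts run over genes exceeding that floor in either array of the pair. No test was possible, and the number of arrays limits the precision. The steps were tested on simulated data (Python 3.11.15, pandas 2.3.3).

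The members, the 10 chaperone lists and the marker lists were chosen with earlier results of these data known. All measured members were named. From each list up to 4 genes past 2-fold and up to 2 bright ones short of it could be named, of which a selection is given. Hspa1a, Cct6a, Trap1 and Hsf1 fell outside it and were chosen after their values were seen. Alternatives were median centring, quantile normalization, other floors, a pseudocount, other choices of probe set and other thresholds. RefSeq tables are of assembly GRCr8.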

Additional observations from a re-analysis of the deposited data

How the results depend on the processing

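The median of the 8 genes kept its sign in all 4 comparisons under all alternatives tried, and 26 of 28 such medians moved by less than 0.1. Many of these could not move. The other floors, and leaving out probe sets whose names mark shared targets, did not touch the probe sets standing for the 8 genes. Their medians were therefore identical under those settings. In involution it was 0.37 with median centring and 0.62 with quantile normalization. The count of genes at least 2-fold higher in heterozygous HHR, 1, became 0 with median centring, quantile normalization, the pseudocount, the mean of all probe sets and a 3-fold threshold, and 2 at 1.5-fold. The counts in homozygous against heterozygous HHR (1 lower) and in involution (1 higher) became 2 and 3 at 1.5-fold and 0 and 0 at 3-fold. Other counts of the 8 genes past a threshold did not move. With the mean of all probe sets, 1 gene in place of 2 was above SDR in homozygous HHR, 5 in place of 6 in heterozygous HHR and 5 in place of 6 in involution, and with quantile normalization 7 were above lactation in involution. Of the chaperone list medians at least 0.1 from 0, those of 4 lists changed sign in 1 comparison each. That of the other small heat shock proteins in involution, 0.47 over 4 genes, became -0.035 with median centring and -0.039 with quantile normalization, each over 5 genes. It became -0.076 over 7 genes with the floor at the 25th percentile. The measured genes thus differed between settings, and 2 were above lactation in each. With the mean of all probe sets, the median of the other mitochondrial chaperones in homozygous HHR against SDR became -0.037, of the HSP70 co-chaperones in heterozygous HHR -0.083 and of the heat shock factors between the HHR arrays -0.080. The cause was not tested. No paired analysis was possible because each group has 1 array. Signals near the floor, such as Cryab in SDR lactation, are limited by it. Whether near-identical gene copies add to the signals of Hspd1, Hspe1 and Hsp90ab1 was not tested.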
